A study of Mus musculus with 2 samples.

Results

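The genes of the Notch pathway described here are its 4 receptors (Notch1, Notch2, Notch3 and Notch4), the ligands Jag1, Jag2, Dll1 and Dll4, and the fringe gene Lfng. They were taken by name from the gene column of both tables, which made 9 genes of the 23951 symbols found in both libraries. RNA-seq was performed on optic nerve at P12, with 1 library from control mice and 1 library from Tcf7l2ΔHMG mice. The control genotype is given as Tcf7l2 c/+ with OLig1-cre and the mutant genotype as Tcf7l2 c/c with OLig1-cre, so the control also carries Cre and 1 conditional allele. In the mutant, Cre removes exon 11, which encodes the HMG box with which Tcf7l2 binds DNA, in cells that have expressed Olig1-Cre, an oligodendrocyte lineage driver. The other cells of the nerve (astrocytes outside that lineage, vessels, microglia and meninges) keep the gene but were sequenced together with the lineage. The animals were of a mixed strain background, and how many nerves went into each library is not given in the sources used here.

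Notch receptors are single-pass membrane proteins that are activated by Jagged or Delta-like ligands on a neighbouring cell. Ligand pulling exposes the receptor to ADAM proteases and then to γ-secretase, and the freed intracellular domain enters the nucleus, where it joins Rbpj and Mastermind proteins to switch on genes of the Hes and Hey families. Fringe enzymes such as Lfng add sugars to the receptor and thereby shift its preference between Jagged and Delta ligands. In developing white matter, Jagged on axons is known to activate Notch1 on oligodendrocyte precursors and to hold back their differentiation, while Dll4 and Notch4 are best known from endothelial cells and Notch3 from the mural cells of vessels.

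Promoter sequences of Dll4, Dll1 and Lfng are given here, because the deleted domain of Tcf7l2 is a DNA-binding domain. The windows are the 250 bases before the annotated start, from RefSeq on build GRCm38.p6, read 5′ to 3′ on the strand of the gene. The expression tables were made on build mm9, so positions in these windows and positions in the tables cannot be set side by side. The first 3 windows belong to the ligand genes that were lower in the mutant past the cutoff, and Dll1 has a pair of annotated starts. The last belongs to Lfng, which did not pass the cutoff and is shown for its match to the core letters bound by Rbpj, in capitals.
Dll4, chr2:119325534-119325783, plus strand: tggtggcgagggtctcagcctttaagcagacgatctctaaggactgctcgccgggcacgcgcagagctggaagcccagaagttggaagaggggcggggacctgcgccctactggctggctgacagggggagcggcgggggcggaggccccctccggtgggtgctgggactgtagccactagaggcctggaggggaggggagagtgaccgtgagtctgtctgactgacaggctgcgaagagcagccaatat
Dll1, chr17:15375824-15376073, minus strand: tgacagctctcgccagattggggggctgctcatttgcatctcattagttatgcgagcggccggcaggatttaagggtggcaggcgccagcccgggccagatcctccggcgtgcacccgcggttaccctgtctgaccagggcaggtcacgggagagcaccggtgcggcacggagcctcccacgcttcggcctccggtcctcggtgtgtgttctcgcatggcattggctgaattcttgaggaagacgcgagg
Dll1, chr17:15376933-15377182, minus strand: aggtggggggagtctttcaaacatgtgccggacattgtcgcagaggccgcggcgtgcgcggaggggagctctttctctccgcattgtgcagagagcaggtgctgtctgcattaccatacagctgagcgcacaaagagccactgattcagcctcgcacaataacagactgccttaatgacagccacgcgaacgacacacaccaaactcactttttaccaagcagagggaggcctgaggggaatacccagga
Lfng, chr5:140607091-140607340, plus strand: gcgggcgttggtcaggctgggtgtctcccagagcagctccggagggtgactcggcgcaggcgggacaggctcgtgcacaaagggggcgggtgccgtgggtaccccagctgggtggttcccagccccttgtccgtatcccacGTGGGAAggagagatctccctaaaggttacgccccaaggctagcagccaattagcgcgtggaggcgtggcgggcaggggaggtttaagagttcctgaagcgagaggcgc

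The TCF core TCAAAG, searched on both strands, was in 0 of the 10 windows of the 9 genes, and in 13.8% of 32851 windows of all genes. The Rbpj core GTGGGAA, also searched on both strands, was in 1 of the 10 windows, that of Lfng, where it starts 109 bases before the annotated start, and in 5.42% of all windows. The base composition of the windows ranged from 56.0% G and C in the second Dll1 window to 87.2% in that of Jag2. A match is a description of the letters, and the absence of one within 250 bases says nothing about binding farther away.

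The authors' values are FPKM, fragment numbers scaled by transcript length and library depth, each with a confidence interval from Cufflinks that covers error within 1 library and not the variation between animals. With 1 library per genotype there was no replicate check of any difference, so no test was made and intervals that overlap or do not overlap are stated as such. Depth, read from the interval bounds, was 27624000 fragments in control nerve and 39938000 in the mutant, so that 3 fragments on 1 kb equal 0.109 and 0.0751 FPKM. Log2 ratios of mutant to control were computed after adding 0.1 to each FPKM, which understates the change of low genes, and were compared over 14199 genes with at least 1 FPKM in at least 1 library. Their median was 0.05. Rows without a name held 70.7% of all FPKM in the control library and 80.7% in the mutant library, and rescaling all rows to an equal sum lowers the median ratio of all tested genes by 0.65. Tcf7l2 itself was at 17.8 FPKM (16.7 to 18.9) in control nerve and 14.6 FPKM (13.9 to 15.4) in the mutant, a log2 ratio of −0.28. A value for the whole gene does not check the loss of exon 11.

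All 9 genes were above 1 FPKM in both libraries and entered the comparison, and each FPKM lay inside its own interval. Above the study's cutoff of a 1.5-fold change, Dll1 and Dll4 were lower in the mutant and Notch4 was higher, the last only as a row that also contains another gene. The share of all tested genes past this cutoff was 8.52% for lower and 15.4% for higher. The other 6 genes stayed within 1.5-fold. For 7 of the 9 genes the library intervals were apart, compared with 52.4% of all tested genes. Of the 9 genes, 4 were higher in the mutant with intervals apart, the merged Notch4 row included, and 3 were lower, beside 30.0% and 22.3% of all tested genes. The median log2 ratio of the 9 genes was 0.02, and −0.13 without Notch4. On the FPKM as deposited, Notch1, Notch2, the merged Notch4 row and the fringe gene had ratios above 0, and 3 of the 4 ligands had ratios below 0.

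**Figure D1:**
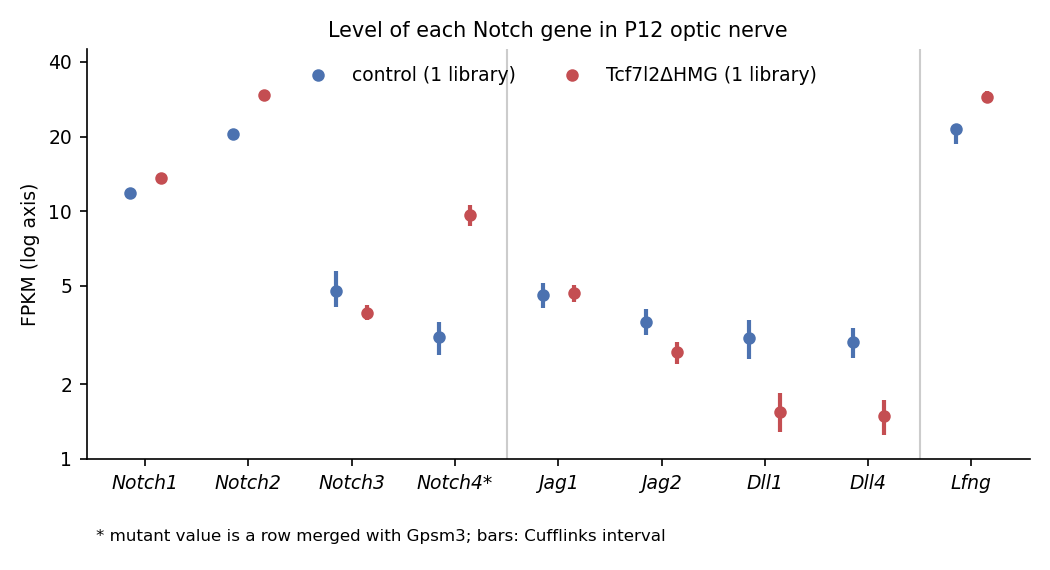
Level in FPKM (log axis) of the 4 receptors, the 4 ligands and Lfng in the control library (blue) and the Tcf7l2ΔHMG library (red). Points are the authors' FPKM and bars their Cufflinks intervals within 1 library; Dll1 and Dll4 lie at about 3 FPKM in control nerve and 1.5 FPKM in the mutant with bars apart, and the mutant Notch4 value is a row merged with Gpsm3.

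Notch2 was the most abundant receptor in both libraries. It lies on chromosome 3 (mm9, chr3:97817461-97954341) and was at 20.6 FPKM (interval 19.8 to 21.5) in control nerve and 29.5 FPKM (28.5 to 30.0) in the mutant. The mutant was higher by 43.6%, a log2 ratio of 0.52, below the 1.5-fold cutoff, and the intervals did not overlap. The paper names Notch2 among differentiation inhibitors upregulated in the mutant optic nerve, although the FPKM used here stay within its 1.5-fold cutoff. Of the 1420 tested genes with a similar level, 87.6% had a lower ratio. The values rest on about 5966 fragments in control nerve and 12387 in the mutant, the most of any of the 9 genes.

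Notch1, the receptor with the best-known part in oligodendrocyte precursors, lies on chromosome 2 (mm9, chr2:26313422-26359342). It was at 11.8 FPKM (11.2 to 12.3) in control nerve and 13.6 FPKM (13.2 to 14.2) in the mutant, a log2 ratio of 0.20. The intervals did not overlap, but the mutant value was only 14.8% higher, and 67.7% of genes of similar level had a lower ratio. The directions of Notch1 and Notch2 turned under 1 of the scalings tried. Both ratios fell below 0 (−0.47 and −0.15) when all rows were rescaled to an equal sum, where the median of all tested genes was −0.61. They stayed above 0 when ratios were centred on the median of all genes (0.15 and 0.47). The same held with libraries scaled to their 75th percentile (0.15 and 0.47) and with only the named rows rescaled (0.13 and 0.45).

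Notch3 (mm9, chr17:32257782-32303797) was at 4.76 FPKM (4.11 to 5.73) in control nerve and 3.90 FPKM (3.62 to 4.17) in the mutant. The log2 ratio was −0.28 and the intervals overlapped. Of Notch1, Notch2 and Notch3, it alone had a ratio below 0 on the FPKM as deposited.

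Notch4 could not be compared between the libraries on its own. In the control it has a row of its own (mm9, chr17:34701240-34725488) at 3.10 FPKM (2.63 to 3.56). In the mutant it shares 1 row (chr17:34701240-34728699) with Gpsm3, the next gene on the same strand, which begins 1262 bases after the end of Notch4, and the merged row is at 9.64 FPKM (8.70 to 10.6). Read by its symbol alone, Notch4 had a log2 ratio of 1.61, a 3.11-fold difference. Gpsm3, which encodes a G-protein signalling modulator, was at 4.69 FPKM (3.91 to 5.47) in control nerve, so both genes summed to 7.79 FPKM (6.54 to 9.03) there. Set against this sum, the merged row of the mutant gave a log2 ratio of 0.30, with overlapping intervals.

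Such merging was not rare, and it went with large ratios. Of 194 tested symbols that were merged with a neighbour in the mutant library only, 67.0% were higher in the mutant past 1.5-fold and 7.22% lower. Of 125 symbols merged in the control library only, 9.6% were higher and 64.0% lower. The shares were 14.7% and 8.04% among the 13120 symbols merged in neither library. Without Notch4, 0 of the other 8 genes were higher past the cutoff, beside 15.4% of all tested genes, and 2 were lower.

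Lfng, on chromosome 5 (mm9, chr5:141083295-141091499), was at about the level of Notch2. It was at 21.5 FPKM (18.7 to 21.9) in control nerve and 28.9 FPKM (27.6 to 30.5) in the mutant, higher by 34.5%, with a log2 ratio of 0.43. The intervals were apart and 83.5% of genes of similar level had a lower ratio, but the ratio was −0.24 with all rows rescaled to an equal sum. It was 0.38 with ratios centred on the median of all genes and 0.36 with only the named rows rescaled. The other fringe genes, which encode enzymes of the same activity, gave ratios near 0 with overlapping intervals. Rfng was at 16.5 FPKM in control nerve and 15.9 FPKM in the mutant, and Mfng was at 3.98 FPKM and 3.47 FPKM. Within a library, where scaling plays no part, Lfng was 1.30 times Rfng in control nerve (1.04 to 1.44 over the intervals) and 1.81 times Rfng in the mutant (1.62 to 2.06). Its share of the summed fringe FPKM was 51.1% in control nerve and 59.8% in the mutant.

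Dll1 and Dll4, the Delta-like ligands among the 9 genes, were both lower in the mutant. Dll1 (mm9, chr17:15504318-15512871) was at 3.08 FPKM (2.53 to 3.63) in control nerve and 1.55 FPKM (1.28 to 1.84) in the mutant, a change of −49.5% on the measured values. Its log2 ratio was −0.94, between −1.43 and −0.44 over the intervals. Dll4 (mm9, chr2:119151520-119161402) was at 2.96 FPKM (2.55 to 3.36) in control nerve and 1.49 FPKM (1.25 to 1.73) in the mutant. Its log2 ratio was also −0.94, between −1.36 and −0.54 over the intervals. For both genes the intervals of the libraries were apart, while the end of the ratio's range nearest to 0 lay within 1.5-fold.

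Dll1 and Dll4 were also among the lowest ratios of their expression class. Only 4.86% of the 1420 genes of similar level had a lower ratio than Dll1, and 4.79% had a lower ratio than Dll4. They were the least abundant of the 9 genes, and rest on about 305 and 306 fragments in control nerve and 222 and 223 in the mutant. A row for Gm14207 overlaps Dll4 in both tables and was listed at 0. Both genes stayed lower past 1.5-fold under each alternative scaling and pseudocount tried, and neither passed a cutoff of 2-fold on the FPKM as deposited. Both were past 2-fold with all rows rescaled to an equal sum (log2 ratios of −1.52 each) and with only the named rows rescaled (−1.04 each).

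The Jagged genes differed less. Jag2 (mm9, chr12:114146482-114167706) was at 3.58 FPKM (3.15 to 4.02) in control nerve and 2.69 FPKM (2.43 to 2.96) in the mutant, a log2 ratio of −0.40 with intervals apart and within the cutoff. Jag1 (mm9, chr2:136907187-136942256) was at 4.60 FPKM (4.08 to 5.12) in control nerve and 4.67 FPKM (4.29 to 5.04) in the mutant. Its log2 ratio of 0.02 ranged from −0.25 to 0.30 over the intervals, and its sign turned when ratios were centred on the median of all genes.

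**Figure D2:**
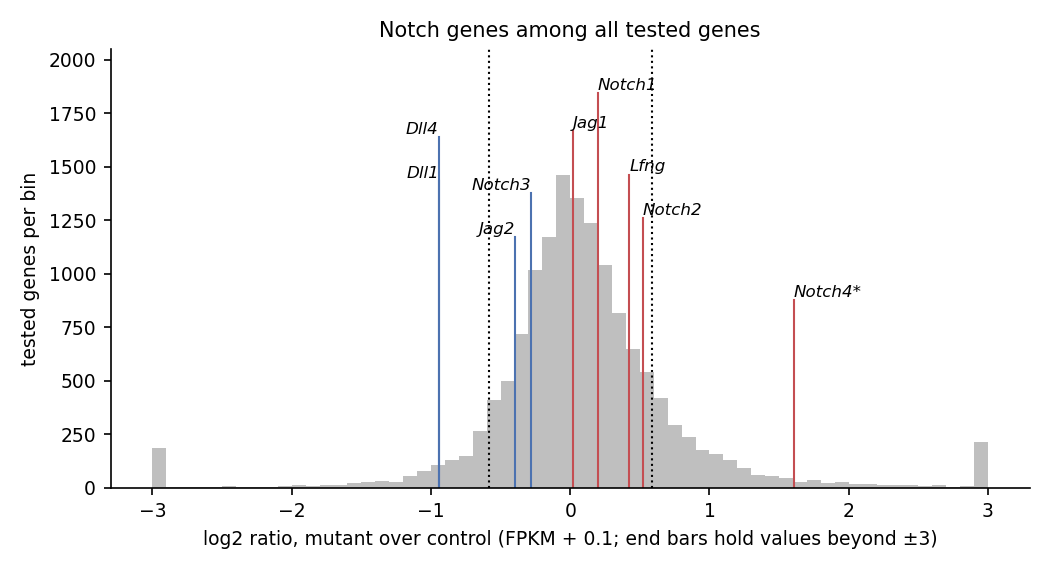
Number of tested genes (14199 in all) by log2 ratio of mutant over control FPKM in grey, with a line for each of the 9 genes (line height has no meaning; blue below 0, red above 0) and dotted lines at the 1.5-fold cutoff. Dll1 and Dll4 lie together at −0.94; Notch4, marked by an asterisk, is a row merged with Gpsm3 in the mutant, and the lines of Notch1, Notch2, Lfng and Jag1 move below 0 when all rows are rescaled to an equal sum.

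Since FPKM is per length, levels of different genes can be set in order within a library. In the control, Lfng and Notch2 stood first with overlapping intervals, then Notch1, then Notch3 and Jag1 with overlapping intervals. Jag2, Notch4, Dll1 and Dll4 followed, each overlapping the next in the order. In the mutant, Notch2 and Lfng again overlapped at the top and Notch1 followed. Below the merged Notch4 row, the order was Jag1, Notch3, Jag2 and then Dll1 with Dll4, and only the last pair overlapped. The ligands Jag2, Dll1 and Dll4, adjacent in level in control nerve, were thus separated in the mutant, where Jag2 stood above the Delta-like pair.

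The balance within each class was compared next, because a share within a library does not depend on how the libraries were scaled. Of the summed FPKM of Notch1, Notch2 and Notch3, Notch2 took 55.4% in control nerve (52.4 to 58.4 over the intervals) and 62.9% in the mutant (60.9 to 64.1). Notch3 took 12.8% (10.8 to 15.6) and 8.30% (7.59 to 9.10), and Notch1 took 31.8% (29.1 to 33.9) and 28.8% (27.8 to 30.6). The ranges were apart for Notch2 and Notch3 and overlapped for Notch1. With the Notch4 rows as deposited, Notch2 took 51.1% and 52.2% and Notch4 7.70% and 17.02%, so the shift towards Notch2 is seen only when the merged row is left aside. The ratio of Notch2 to Notch1 was 1.74 in control nerve (1.61 to 1.92) and 2.18 in the mutant (2.02 to 2.27).

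Among the 4 ligands, Jag1 took 32.4% of the summed FPKM in control nerve (27.1 to 38.3) and 44.9% in the mutant (39.7 to 50.4). Dll1 took 21.7% (16.8 to 27.0) and 14.9% (11.6 to 18.8), and Dll4 took 20.8% (16.7 to 25.6) and 14.3% (11.3 to 17.7), with overlapping ranges for each alone. Jag2 took 25.2% and 25.9%. The sum of the Jagged genes was 1.36 times that of the Delta-like genes in control nerve (1.04 to 1.80) and 2.42 times in the mutant (1.88 to 3.16). The 3 receptors without Notch4 summed to 37.1 FPKM in control nerve and 47.0 FPKM in the mutant, and the 4 ligands to 14.2 FPKM and 10.4 FPKM. The ratio of receptor to ligand FPKM was therefore 2.61 in control nerve (2.18 to 3.21) and 4.52 in the mutant (3.92 to 5.22), with ranges apart.

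**Figure D3:**
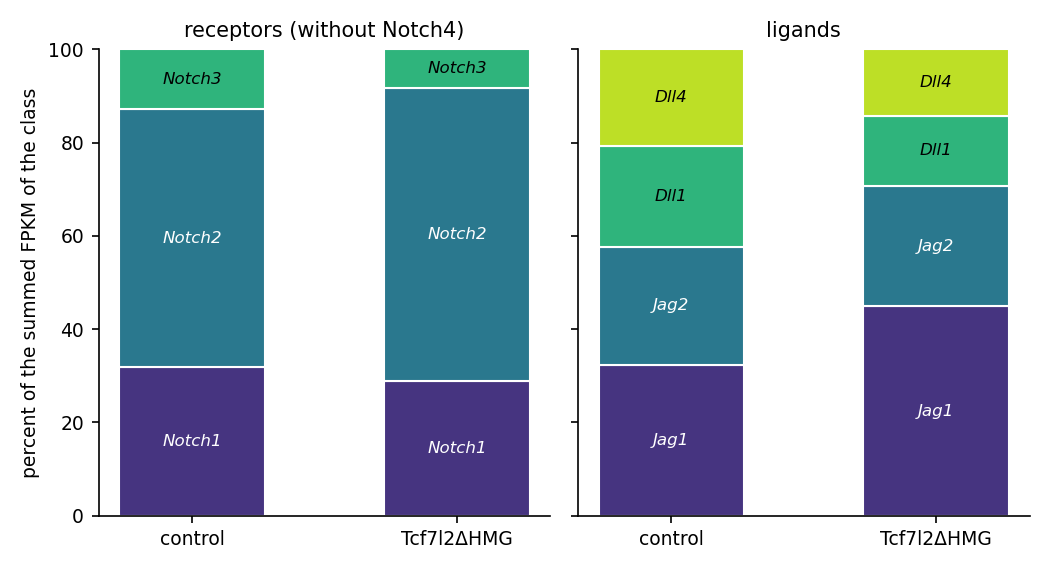
Percent of the summed FPKM within 1 library taken by each receptor (left, without Notch4) and each ligand (right) in control and Tcf7l2ΔHMG optic nerve, 1 library each. The Notch2 segment is 55.4% in control nerve and 62.9% in the mutant, and the Jag1 segment is 32.4% and 44.9%.

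The other genes of the pathway were followed as a list of 49 genes, all of which passed the expression filter. In the mutant 5 were higher past 1.5-fold, 3 were lower and 41 were neither, beside 15.4% higher and 8.52% lower among all tested genes, and the median log2 ratio was 0.05. With all rows rescaled to an equal sum these counts were 1 higher and 25 lower. Among all 14199 tested genes, that rescaling put 640 higher and 7398 lower.

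Of the other ligands and ligand-like genes, Dlk1, a Delta-like protein without the usual receptor-binding domain, was at 1.25 FPKM (1.02 to 1.48) in control nerve and 3.96 FPKM (3.62 to 4.32) in the mutant, a log2 ratio of 1.59. Its relative Dlk2 went the other way, from 7.44 FPKM to 4.70 FPKM (log2 ratio −0.65). Mfap5, a microfibril glycoprotein reported to bind Jagged and Notch, was at 30.9 FPKM and 55.1 FPKM (0.83). Dll3, a Delta-like protein that does not activate receptors on other cells, was at 3.72 FPKM (3.16 to 4.28) and 2.67 FPKM (2.28 to 3.07), a log2 ratio of −0.46 with intervals apart and within the cutoff.

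Of 12 genes of trafficking and turnover, Neurl1a, an E3 ligase that acts on ligands, was at 1.27 FPKM and 2.97 FPKM (log2 ratio 1.16). Dtx1, a Deltex E3 ligase that binds the receptor's intracellular domain, was at 8.79 FPKM and 15.1 FPKM (0.77). In the nuclear complex, Maml3, a Mastermind coactivator, was at 1.11 FPKM and 1.86 FPKM (0.69), while Rbpj, the DNA-binding partner of all 4 receptors, was at 20.7 FPKM in both libraries. None of the 10 genes of the receptor proteases passed the cutoff.

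Of the 7 genes listed as pathway targets, Hes5 and Hes6 were lower past the cutoff and none was higher, beside 8.52% and 15.4% of all tested genes. Hes6 is a Hes family member that opposes Hes1 and is itself expressed in differentiating cells. It was listed with the targets, but its level was not read as Notch output. Hes6 was at 24.1 FPKM (19.4 to 28.5) in control nerve and 12.6 FPKM in the mutant, a log2 ratio of −0.93. The mutant value lay outside its own interval (9.92 to 12.4). Hes5, a direct Notch target in neural progenitors, was at 3.75 FPKM (1.87 to 5.63) and 2.13 FPKM (1.67 to 2.58), a log2 ratio of −0.79 with overlapping intervals. Hes1, the other classical target, was at 10.9 FPKM (8.84 to 12.9) and 7.97 FPKM (7.11 to 8.85), a log2 ratio of −0.44 with overlapping intervals.

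The remaining targets were closer to the control level. Hey1, which encodes a Hes-related repressor, had a log2 ratio of −0.23 and its relative Hey2 a ratio of 0.01, both with overlapping intervals. Heyl, best known from mural cells, was at 3.71 FPKM and 4.84 FPKM (0.37, intervals apart). Nrarp, a feedback inhibitor that binds the receptor's intracellular domain, had a ratio of −0.26 with overlapping intervals. Of the 7 listed genes, the intervals were thus apart in 2, Hes6 below and Heyl above the control, beside 52.4% of all tested genes.

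**Figure D4:**
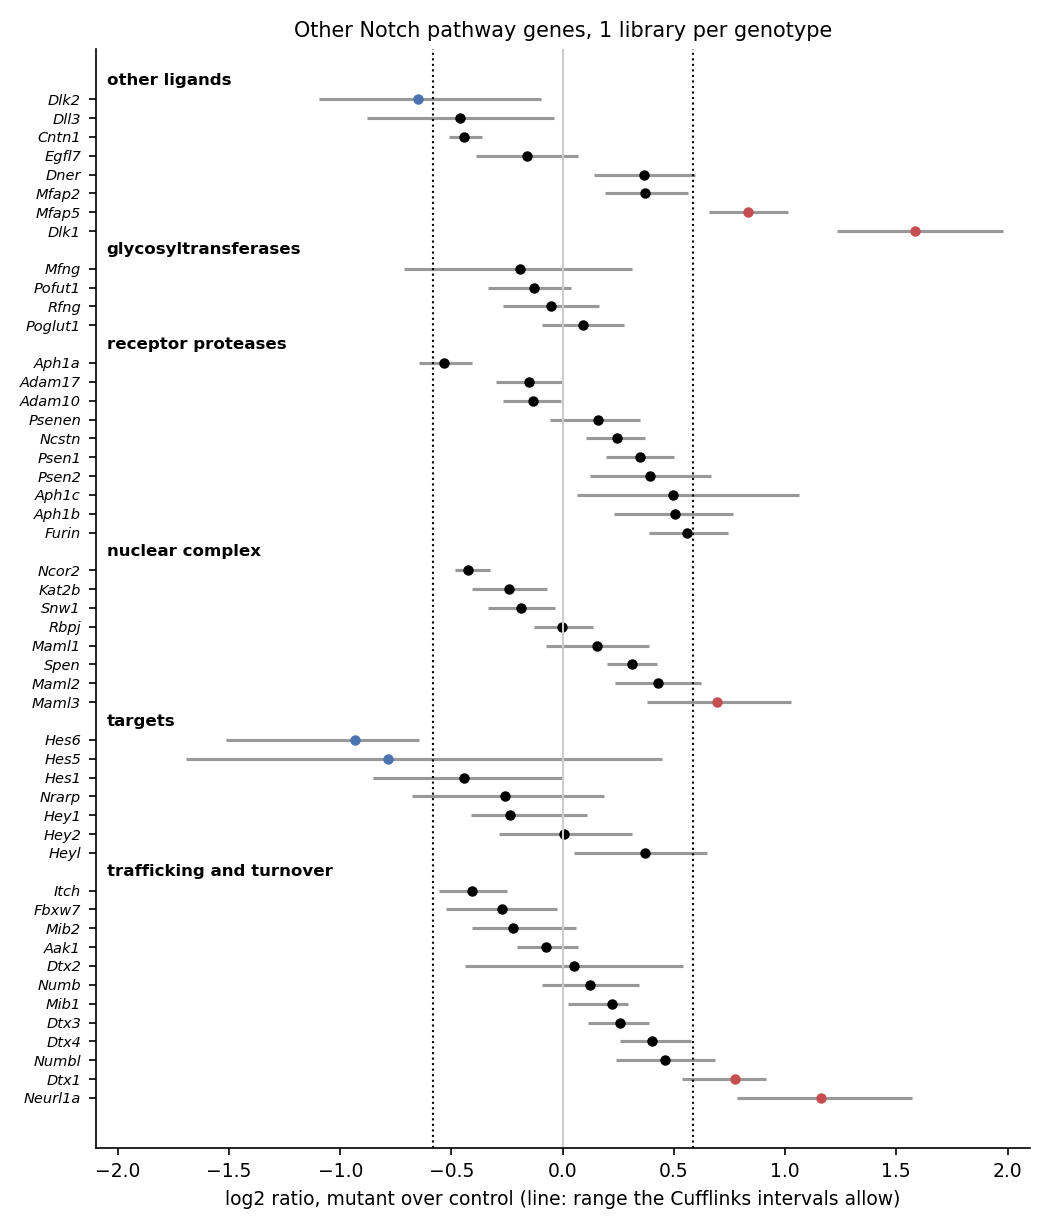
Log2 ratio of mutant over control FPKM for the 49 other Notch pathway genes, grouped by role, with the range that the Cufflinks intervals of both libraries allow as a line. Red and blue points are the 5 genes higher and the 3 genes lower past the 1.5-fold cutoff (dotted), and the line of Hes5 crosses 0.

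The nerve is a mixture of cells, and in bulk RNA fewer cells of a type and less RNA per cell cannot be told apart. The levels of cell type markers are therefore given beside those of the Notch genes. Among all tested genes, 15.4% were higher and 8.52% lower past 1.5-fold, the shares beside which each marker count stands. Oligodendrocyte markers were lower in the mutant, 7 of 10 past 1.5-fold, with a median log2 ratio of −1.07 and a summed level of 15430 FPKM in control nerve and 6956 FPKM in the mutant. Mog, a gene of mature myelin, was at 597 FPKM in control nerve and 407 FPKM in the mutant. Markers of oligodendrocyte precursors were lower past the cutoff in 2 of 10 genes (median −0.19, summed level 639 and 526 FPKM), with Pdgfra at 35.9 and 33.6 FPKM and Cspg5 at 66.7 and 61.8 FPKM. The 2 lower genes, named after their values were seen, were Gpr17 (235 and 156 FPKM) and Vcan (41.0 and 26.3 FPKM). Gpr17, the highest of the list, weighs most in the sum. Of the 10 ratios, 9 were below 0 and 1 above.

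For the vessels, where Dll4 and Notch4 are best known, endothelial markers were lower past the cutoff in 2 of 10 genes and higher in 1, with a median log2 ratio of −0.42 and a summed level of 164 and 138 FPKM. Cdh5 was at 20.9 and 31.6 FPKM and Pecam1 at 13.35 and 10.96 FPKM, so the first markers of the list moved in opposite directions. The log2 ratios of Dll1 and Dll4 were below those of every tested marker in each list except the oligodendrocyte list. They were below 4 and above 6 of the 10 oligodendrocyte marker ratios. Of the 10 mural markers 2 were higher and 1 lower (median 0.18, summed level 280 and 394 FPKM), with Pdgfrb at 18.6 and 22.5 FPKM and Rgs5 at 63.0 and 40.5 FPKM. The mural markers higher past the cutoff were Vtn and Tagln, chosen for mention after their values were seen. Vtn, the highest of the list in both libraries, was at 160 FPKM in control nerve and 256 FPKM in the mutant. Tagln was listed at 0 in control nerve (interval 0 to 0.0524) and at 35.3 FPKM in the mutant. Rows come from an assembly made per library, and whether that 0 is a true level was not tested. Vtn and Tagln weigh heavily in the mural sum, so the sum does not stand for the list as a whole. Of the 10 mural ratios, 6 were above 0 and 4 below.

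Astrocyte markers were higher past the cutoff in 2 of 10 genes (median 0.27, summed level 5512 and 6539 FPKM), with Aqp4 at 182 and 148 FPKM and Gfap at 4059 and 4729 FPKM. Microglial markers were higher in 1 of 10 (median 0.15, summed level 294 and 343 FPKM), with Cx3cr1 at 16.2 and 17.7 FPKM and Aif1 at 11.7 and 8.73 FPKM. The log2 ratio of Notch2 (0.52) was above those of 7 of 10 astrocyte and 9 of 10 microglial markers, and that of Lfng (0.43) above 6 of 10 and 7 of 10.

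The marker lists of cells other than glia and vessels had medians above 0, as did the astrocyte, microglial and mural lists. Meningeal fibroblast markers were higher past the cutoff in 6 of 10 genes (median 0.69, summed level 2069 and 3201 FPKM), with Dcn at 137 and 235 FPKM and Lum at 30.5 and 37.2 FPKM. All 5 blood genes, which stand on 4 distinct rows because Hba-a1 and Hba-a2 share 1, were higher (median 1.25 with the shared row counted for both genes, summed level 163 and 403 FPKM over distinct rows). The row of Hba-a1 was at 88.7 and 228 FPKM, and Hbb-b1, in a row merged with Hbb-bs in both libraries, was at 43.8 and 104 FPKM. Neuronal markers were higher in 6 of 9 tested genes (median 0.79, summed level over the list 67.2 and 103 FPKM), with Tubb3 at 12.7 and 22.0 FPKM and Rbfox3 at 0.658 and 1.51 FPKM. The log2 ratio of Notch2 was above those of 4 of 10 meningeal fibroblast, 3 of 9 neuronal and 0 of 5 blood markers. That of Lfng was above 3 of 10, 3 of 9 and 0 of 5. The part of the differences in tissue make-up in the levels of the Notch genes was not tested.

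**Figure D5:**
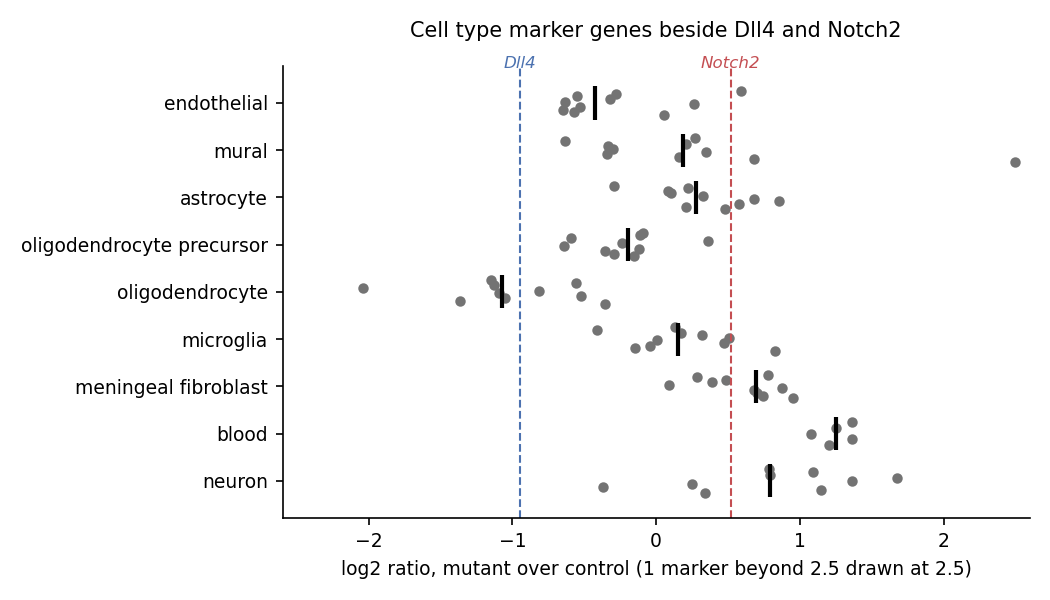
Log2 ratio of mutant over control FPKM of each tested marker (grey points) by cell type, with the median of each list as a bar and dashed lines at Dll4 (−0.94) and Notch2 (0.52). The oligodendrocyte list has the lowest median (−1.07) and the blood list the highest (1.25), and only oligodendrocyte markers lie as low as Dll4.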

How the data were processed

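RNA-seq of P12 optic nerve from 1 control and 1 Tcf7l2ΔHMG library was analysed from the deposited gene tables. The authors aligned reads with TopHat and computed FPKM with Cufflinks, on build mm9 per the submitters' processing notes, and the deposited FPKM values were used unchanged. Tool versions are not given in the sources used here. Rows come from an assembly made per library. Merged names were split, rows were summed per symbol, and a merged row counts once for each of its names. Genes were kept where Cufflinks gave the status OK for both libraries and 1 library or both reached 1 FPKM. Log2 ratios used a pseudocount of 0.1, and the study's cutoff of 1.5-fold was applied. Depth was read from the bounds of 194 and 349 unnamed rows under 100 bases, of which 99.5% and 99.9% lay within 0.02 of a whole number of fragments. Fragments behind a gene are approximate, from depth, FPKM and the longest protein-coding GENCODE M21 transcript. Intervals cover counting and assignment error only.

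The genes and lists were chosen with earlier results of these data known. Outside the rule below, the markers Gpr17, Vcan, Vtn and Tagln were named after their values were seen. Named are the 9 genes, Tcf7l2, the targets and partners Hes1, Hes5, Hey1, Hey2, Heyl, Nrarp, Rbpj, Mfng, Rfng and Dll3, each pathway gene past 1.5-fold and the first 2 markers of each list. A gene covered by this rule is not reported here. The counting was tested on simulated data. Alternatives were other pseudocounts, filters, scalings, row handling and cutoffs. Summing Notch4 with Gpsm3 and leaving Notch4 out were chosen after seeing the data. Scripts ran in Python 3.11.15 (numpy 2.4.6, pandas 2.3.3, matplotlib 3.10.9).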

Additional observations from a re-analysis of the deposited data

Results flagged for a closer look

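One row outside the comparisons was flagged as signal in data that they do not use. An unnamed row of 222 bases lies inside Notch1 in the mutant library (mm9, chr2:26318918-26319139) and was listed at 6.25 FPKM, above the limit of 0.338 FPKM that 3 fragments allow on a row of this length. Its FPKM lay outside its own Cufflinks interval (0.564 to 2.71), and the control table has no unnamed row there, so it was compared with nothing.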

How the results depend on the processing

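Dll1 and Dll4 kept a ratio below 0 under every alternative that tested them. Notch1, Notch2 and Lfng kept ratios above 0 under every alternative but the rescaling of all rows. When all rows were rescaled to a sum of 1000000, the median of all tested genes moved by −0.65. There the log2 ratios were −0.47 for Notch1, −0.15 for Notch2 and −0.24 for Lfng, 5 of the 9 genes were lower past 1.5-fold, and their median was −0.63. Under it 1 other pathway gene was higher and 25 were lower, and of all tested genes 640 were higher and 7398 lower (main counts 2185 and 1210), so that 7.96% of calls were higher in place of 64.4%. With a minimum of 5 FPKM in either library only 4 of the 9 genes were tested (Notch1, Notch2, Lfng and the merged Notch4 row). Of these 0 were lower, and their median, which includes the merged row, was 0.47. Dll1 and Dll4 did not reach that minimum, so this count does not cover them. In this setting 2 other pathway genes were higher and 2 lower, and of 10535 tested genes 1290 were higher and 889 lower. Above a 2-fold change 0 of the 9 genes were lower, 2 other pathway genes were higher and 0 lower, and 975 of all genes were higher and 522 lower. With merged rows left out, or without Notch4, 0 of the 8 genes then tested were higher, and Notch4 summed with Gpsm3 gave a log2 ratio of 0.30 in place of 1.61. No paired analysis was possible because there was 1 library per genotype, and for the same reason no library could be left out. Depth limits Dll1 and Dll4 most, with about 222 and 223 fragments in the mutant.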
